A study of Mus musculus with 8 samples.

Results

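Lin28a, Lin28b, Hmga1, Hmga2, Igf2bp1, Igf2bp2, Igf2bp3 and Trim71 form a set of mammalian genes that set developmental timing together with the let-7 microRNAs. They were taken by gene symbol, and all 8 were found among the 55421 identifiers of the expression table and among the 15717 genes tested. The table holds 8 RNA-seq libraries of the vagal region (somites 1 to 7) of mouse embryos at E9.5. The mutant group has 4 libraries, genotype Rdh10(trex/trex), named trex below, and the control group has 4 wild type libraries, named wt. The labels number the libraries 1 to 8, and wt libraries 5 to 8 are called wt replicates 1 to 4 here. Rdh10 oxidises retinol, which is the step before retinoic acid is made. The labels name no strain, litter or sex and do not say whether a library is 1 embryo or a pool, so the p-values below measure the spread between these libraries, which may be partly technical.

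Lin28a and Lin28b are RNA-binding proteins of the early embryo that bind let-7 precursors and block their maturation. Mature let-7 in turn represses messengers whose 3′ untranslated region (3′ UTR) pairs with its seed, bases 2 to 8, and the best known of these targets are Lin28a, Lin28b, Hmga2, the Igf2bp genes and Trim71 themselves. The set is abundant in the undifferentiated embryo and declines as organs form and let-7 accumulates.

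The pairing that joins these genes can be read from the sequences. Of 11 distinct mature let-7 and miR-98 sequences in RefSeq (build GRCm38.p6), 10 shared 1 seed, and let-7j differed. Those of 2 family members and of let-7j are shown 5′ to 3′ with the seed in capitals, since the match searched below follows from it.
let-7a-5p (chr13:48538239-48538260, minus strand): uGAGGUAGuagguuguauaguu
let-7g-5p (chr9:106178846-106178867, plus strand): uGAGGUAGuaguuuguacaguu
let-7j (chr3:140028281-140028304, plus strand): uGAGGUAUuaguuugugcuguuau

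The letters that pair with this seed, CTACCTC, were searched on the sense strand of the longest annotated 3′ UTR of each gene in GENCODE M21. All 8 genes held at least 1 match. Of 13127 tested protein-coding genes with an annotated 3′ UTR, 10.7% did. The set was chosen as genes tied to let-7, so matches were likely from the choice. Its UTRs were also mostly long, from 1183 to 6337 bases, against a median of 1199 over those genes. Of the tested genes with a UTR of at least 2000 bases, 828 held a match and 3153 held none. Hmga2, Lin28b, Igf2bp1 and Trim71 held 4 matches each, which only 11 genes (0.0838%) reached or passed. Lin28a held 2, and Igf2bp2, Igf2bp3 and Hmga1 held 1 each. Of the 21 matches in these genes, 13 were followed by an A, the base that usually strengthens a site. The first match of each gene in its UTR is shown in the sense direction on GRCm38, with the letters that pair with the seed in capitals. A match is a description of the letters and not a measured site.
Lin28a (chr4:134005179-134005207, minus strand): agcctgttgaaCTACCTCatttttgccga
Lin28b (chr10:45381012-45381040, minus strand): gggcgggaagtCTACCTCatgcaagcaca
Trim71 (chr9:114512462-114512490, minus strand): ttgcctaagtcCTACCTCagcttaaattt
Hmga2 (chr10:120364214-120364242, minus strand): acattcaatttCTACCTCagcatcagttg
Hmga1 (chr17:27563281-27563309, plus strand): ctgttcacaaaCTACCTCtggacggttgt
Igf2bp1 (chr11:95961768-95961796, minus strand): tgcgaagtaaaCTACCTCaaggtgtgaag
Igf2bp2 (chr16:22059463-22059491, minus strand): acaaataaaagCTACCTCaggtgtttttt
Igf2bp3 (chr6:49086777-49086805, minus strand): tttttactcaaCTACCTCaggtattcagt

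The deposited values are TPM, transcript levels on a scale that sums to 1000000 per library, which are scaled by gene length, so that levels of different genes can be compared. Differences between genotypes were tested with limma on log2(TPM + 1) over all tested genes and called at a Benjamini-Hochberg adjusted p below 0.05; all adjusted p-values are from this test. Depth recovered from the values was 20928983 to 23648647 reads per library. By this test 8.71% of the 15717 genes were called, 777 higher (4.94%) and 592 lower (3.77%) in trex. The split was 633 and 739 after quantile normalization and 633 and 809 with voom on the recovered reads. Rdh10 itself averaged 76.0 ± 20.2 TPM in the mutants against 38.8 ± 2.20 TPM in controls (SD, n = 4 each, adjusted p = 0.0126, and 0.0540 without wt replicate 2), and since the allele need not lower its transcript, this level does not check the labels. Markers of the vagal level summed to 265 to 300.2 TPM in trex and 360.1 to 443 TPM in wt over 9 genes, all of them detected (6 fell, 1 rose), and forebrain markers to 7.85 to 14.3 and 8.09 to 22.0 TPM over 5 genes.

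All 8 genes were expressed well above the median tested gene (20.5 TPM), and 7 of the 8 were higher in every trex library than in any wt library. Across all tested genes 21.8% had groups that did not overlap, 12.9% with trex higher. Only 3 of the 8, Hmga2, Igf2bp1 and Lin28b, passed the test, all 3 of them higher, against 4.94% called higher and 3.77% called lower over all genes. The median log2 difference of the 8 was 0.26 and that of all tested genes was 0.04. In order of mean level in wt, Hmga2 (341 TPM) came first, then Lin28a (263), Igf2bp2 (245), Igf2bp3 (200.8), Igf2bp1 (183), Lin28b (97.7), Hmga1 (54.4) and Trim71 (54.1). The place of Hmga1 is uncertain, since together with its near-identical copy Hmga1b it averaged 406 TPM, above Hmga2. Among wt neighbours in this order the ranges of Lin28a and Igf2bp2 overlapped, as did those of Hmga1 and Trim71. In trex the order differed only in the last places, with Trim71 before Hmga1. There the ranges of Hmga2 and Lin28a overlapped, those of Igf2bp3 and Igf2bp1 overlapped, and those of Trim71 and Hmga1 overlapped.

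**Figure D1:**
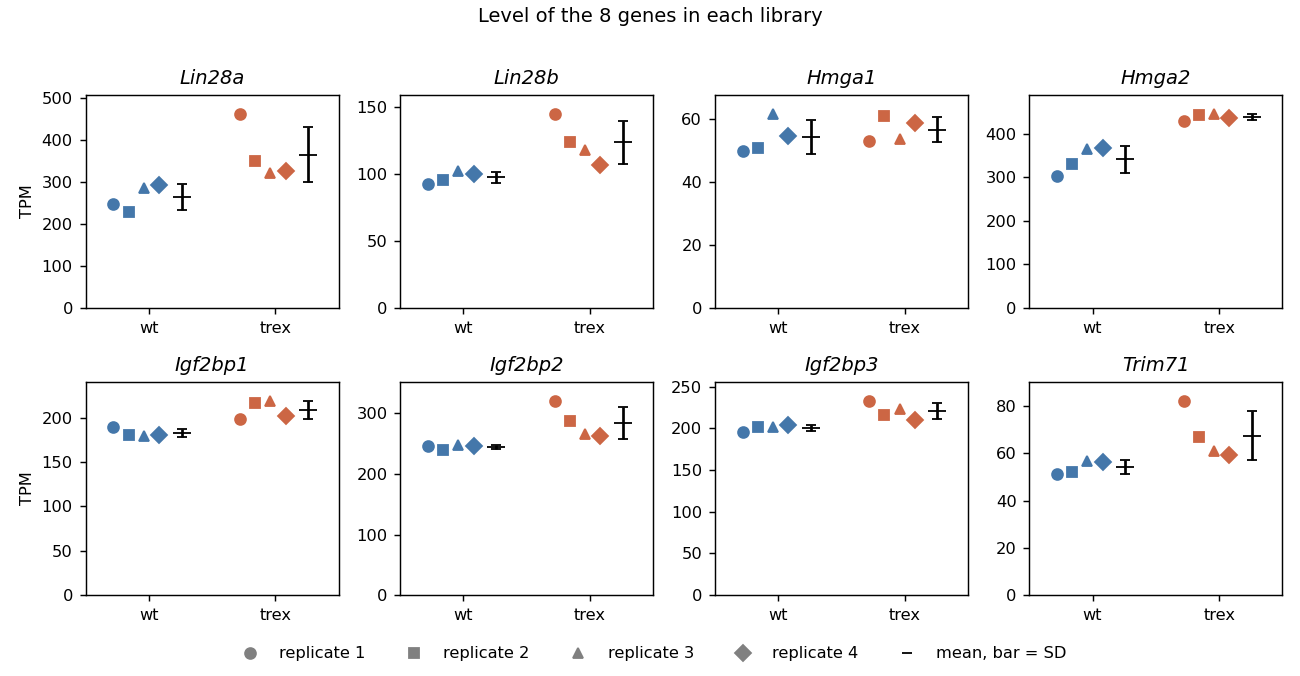
TPM of each gene (vertical axes, from 0) in the 4 wt and 4 trex libraries. Symbols mark replicates, and the black bar gives the mean and SD of each group. Every gene except Hmga1 has all 4 trex values above all 4 wt values.

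Lin28a had the largest difference in log2 level of the 8 but was not called. The gene lies on chromosome 4 (ENSMUSG00000050966, 134003330 to 134018841, mm10, minus strand). It held 461, 349, 322 and 325 TPM in trex replicates 1 to 4 and 246, 228, 285 and 293 TPM in wt replicates 1 to 4. Trex replicate 1 stood far above the other mutants, and wt replicates 1 and 2 stood below wt replicates 3 and 4. The groups did not overlap, and their means differed 1.38-fold, 364 ± 65.7 against 263 ± 31.2 TPM (SD, n = 4 each). On the log2 scale they differed by 0.46 ± 0.13 (SE), and limma gave an adjusted p of 0.0589.

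Lin28b, the paralog on chromosome 10 (ENSMUSG00000063804, 45376620 to 45486395, minus strand), had a lower level in every library and rose in trex. Its level was 145, 124, 119 and 107 TPM in trex replicates 1 to 4 and 92.7, 95.4, 102 and 100.2 TPM in wt replicates 1 to 4. The highest mutant was again trex replicate 1, and trex replicate 4 lay close to the highest wt library. The means were 124 ± 15.9 and 97.7 ± 4.42 TPM, a 1.27-fold difference, or 0.33 ± 0.09 on the log2 scale (adjusted p = 0.0491 in limma). This call is at the edge of the threshold: it held without trex replicate 1 (0.0374) and without trex replicate 4 (0.0451). It was lost without trex replicate 2 or 3 or any single wt library (adjusted p between 0.0546 and 0.139). It was also lost with a pseudocount of 0.1 (0.0513) or 5 (0.0505) and after quantile normalization (0.0501). Lin28a exceeded Lin28b in all 8 libraries, 2.72- to 3.18-fold in trex and 2.39- to 2.93-fold in wt.

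Trim71 encodes an RNA-binding ubiquitin ligase, the mammalian relative of the worm timing gene lin-41, and mouse embryos without it fail to close the neural tube. It lies on chromosome 9 (ENSMUSG00000079259, 114507133 to 114564369, minus strand). It held 82.1, 67.1, 61.0 and 59.5 TPM in trex replicates 1 to 4 and 51.1, 52.0, 56.8 and 56.5 TPM in wt replicates 1 to 4. As for Lin28a, trex replicate 1 was highest and wt replicates 3 and 4 were above wt replicates 1 and 2. The mean was 67.4 ± 10.3 TPM in mutants against 54.1 ± 2.99 TPM in controls, 1.25-fold. The log2 difference of 0.30 ± 0.10 had an adjusted p of 0.0920 in limma and was not called.

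Hmga2 rose in trex and had the smallest adjusted p of the 8. Its protein is an AT-hook chromatin factor that promotes growth, and mice without it are pygmies. The gene lies on chromosome 10 (ENSMUSG00000056758, 120361275 to 120476469, minus strand). Its level was 428, 443, 445 and 437 TPM in trex replicates 1 to 4, a narrow band. In wt it was 303, 330.4, 365 and 367 TPM in replicates 1 to 4, with replicates 1 and 2 below replicates 3 and 4. Group means were 438 ± 7.54 and 341 ± 30.5 TPM, 1.28-fold, or 0.36 ± 0.06 on the log2 scale (adjusted p = 0.0166 in limma). The call was lost without trex replicate 4 (0.0529) and without wt replicate 2 (0.0703), and held without each of the other 6 libraries. It also held under every other scaling and filter tried, and was lost with Y-linked transcripts as a covariate (0.112).

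Hmga1, the other AT-hook gene, on chromosome 17 (ENSMUSG00000046711, 27556497 to 27563674, plus strand), overlapped between the groups. It held 53.1, 61.1, 53.7 and 59.0 TPM in trex replicates 1 to 4 and 50.1, 51.0, 61.7 and 54.7 TPM in wt replicates 1 to 4. Its log2 difference was 0.06 ± 0.08 (adjusted p = 0.622 in limma). Its value is uncertain, because the nearly identical copy Hmga1b on chromosome 11 shares its sequence and took 86.1% to 87.3% of the summed level. Hmga1b averaged 379 ± 29.2 TPM in mutants against 352 ± 20.8 TPM in controls (adjusted p = 0.312). The summed level of both was 436 ± 33.1 and 406 ± 26.0 TPM, and limma gave the sum a log2 difference of 0.10 (adjusted p = 0.349). Hmga2 exceeded the Hmga1 row in all 8 libraries, 7.25- to 8.29-fold in trex and 5.91- to 6.71-fold in wt. Against the sum of Hmga1 and Hmga1b it was 0.941 to 1.09 times as high in trex and 0.775 to 0.909 times in wt, so which of them is higher depends on how shared reads are assigned.

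The Igf2bp genes encode KH-domain proteins that bind messengers such as that of Igf2 and steer their stability, transport and translation. Igf2bp1 rose in trex, by little. It lies on chromosome 11 (ENSMUSG00000013415, 95957163 to 96005940, minus strand) and held 199, 216, 219 and 202 TPM in trex replicates 1 to 4. The wt libraries held 189.8, 181, 179.6 and 181 TPM, so the groups lay apart by less than 10 TPM between the lowest mutant and the highest wt library. The means were 209 ± 10.03 and 183 ± 4.74 TPM, 1.14-fold, or 0.19 ± 0.05 on the log2 scale (adjusted p = 0.0400 in limma). The call held without trex replicate 1 (0.0185) and without trex replicate 2 (0.0400). It was lost without trex replicate 3 or 4 or any single wt library (adjusted p between 0.0708 and 0.127), after median-of-ratios rescaling (0.0987) and with the liver list as a covariate (0.0577).

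Igf2bp2, on chromosome 16 (ENSMUSG00000033581, 22059009 to 22163299, minus strand), held 320.4, 288, 265 and 263 TPM in trex replicates 1 to 4. In wt it held 246, 239.8, 247 and 247 TPM, a spread of only 3.43 TPM (SD). Trex replicate 1 was the highest, and trex replicates 3 and 4 lay just above wt. The log2 difference was 0.21 ± 0.06 (adjusted p = 0.0789 in limma). Igf2bp3, on chromosome 6 (ENSMUSG00000029814, 49085223 to 49214957, minus strand), held 233, 217, 223 and 211 TPM in trex and 196, 201.5, 201.2 and 204 TPM in wt. Its log2 difference was the smallest of the 7 genes whose groups did not overlap, 0.14 ± 0.04 (adjusted p = 0.0846 in limma). Neither was called. Within each of the 8 libraries the order was Igf2bp2, then Igf2bp3, then Igf2bp1.

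**Figure D2:**
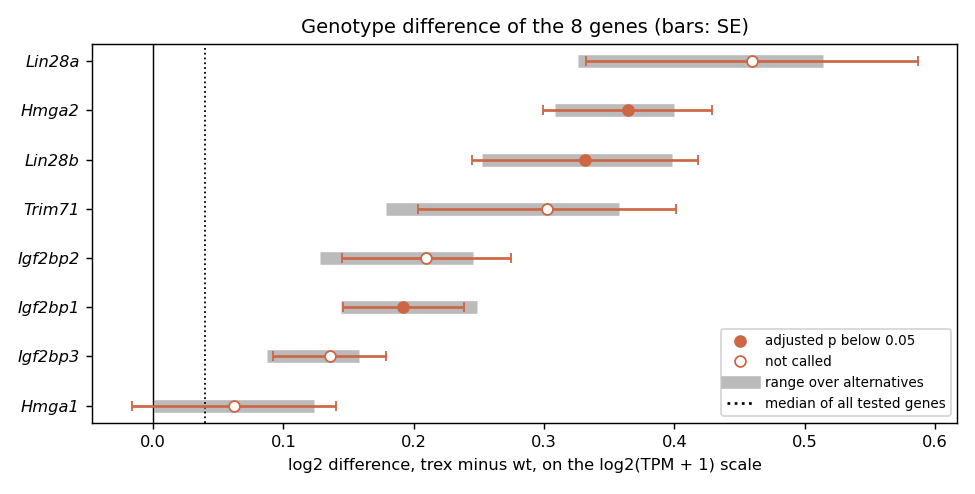
Log2 difference (trex minus wt) of each gene on the log2(TPM + 1) scale, with its SE, filled where the adjusted p is below 0.05. Grey bars span the values under all alternatives tried, and the dotted line marks the median of all tested genes. The 8 values run from 0.06 for Hmga1 to 0.46 for Lin28a, and no alternative turned one below 0.

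An exact two-sided permutation test over the libraries gave p = 0.486 for Hmga1. For the other 7 genes it gave 0.0286, the smallest that 4 against 4 allows, which restates that their groups did not overlap and adds nothing to it. Leaving out wt replicate 2 left none of the 8 called by limma, and Y-linked transcripts as a covariate likewise left none; these fits called 199 (1.26%) and 39 (0.248%) of all genes. In both, 7 of the 8 had an unadjusted p below 0.05, as had 21.1% and 16.8% of all tested genes. The summed Y-linked level was 162 and 158 TPM in wt replicates 2 and 3 and at most 0.0662 TPM in the other 6 libraries, so that both libraries with Y-linked transcripts are wt.

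The 8 genes did not share 1 pattern across the mutant libraries. Trex replicate 1 was the highest of all 8 libraries for 5 genes: Lin28a, Lin28b, Trim71, Igf2bp2 and Igf2bp3. It was the lowest of the 4 mutants for the other 3: Hmga1, Hmga2 and Igf2bp1. Without it the log2 differences fell to 0.34 for Lin28a, 0.25 for Lin28b, 0.20 for Trim71, 0.15 for Igf2bp2 and 0.11 for Igf2bp3, and were 0.38 for Hmga2 and 0.22 for Igf2bp1. In wt, replicate 1 or 2 was the lowest library for 7 of the 8 genes and replicate 3 or 4 the highest for 7 of the 8.

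**Figure D3:**
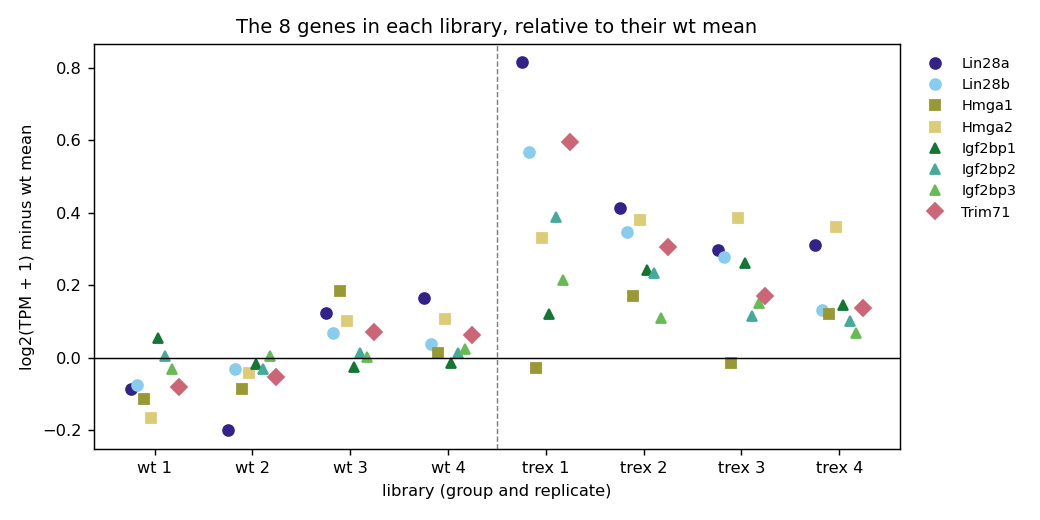
Log2(TPM + 1) of each gene in each library minus its mean over the 4 wt libraries (vertical axis), by library (horizontal axis). Trex replicate 1 spreads the genes most widely, from the Hmga1 value just below 0 to the Lin28a value just above 0.8.

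Other measures moved with genotype and with these libraries. Neuron markers summed to 63.2, 179, 178 and 135 TPM in trex replicates 1 to 4 and to 670.3, 661, 427 and 379 TPM in wt replicates 1 to 4, and all 8 of them fell. Thus wt replicates 1 and 2, lowest in Lin28a, Hmga2 and Trim71, were highest in neuron markers, and trex replicate 1, highest in Lin28a and Trim71, was lowest. That library was the lowest mutant for Hmga2 and Igf2bp1, however. Within wt, Igf2bp1 also went the other way, with 189.8 TPM in replicate 1 and 179.6 to 181 TPM in the other wt libraries. In bulk tissue, fewer neurons and less neuronal RNA per cell cannot be told apart. Of 6 neural progenitor genes 3 fell and none rose, with sums of 393 to 525 TPM in trex and 611 to 736 TPM in wt. Low oxygen genes, 7 of 10 of which rose, summed to 7912, 3416, 5044 and 6494 TPM in trex and 2472 to 2637 TPM in wt. Mitochondrial transcripts made up 2.61% of the total in trex replicate 1, 4.50% to 7.15% in the other mutants and 6.73% to 7.95% in wt. The part of these measures in the differences of the 8 genes was not tested.

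Markers of tissues that a dissection can include were also summed. Over all tested genes 29% had an unadjusted p below 0.05 in limma, the share to set beside the counts below. Liver and yolk sac markers summed to 9.44 to 491 TPM in trex and 4.97 to 194 TPM in wt. None of 9 tested genes was called by limma and none had an unadjusted p below 0.05. In wt the liver and yolk sac sums were high in replicates 3 and 4 (179 and 194 TPM). They were low in replicates 1 and 2 (10.6 and 4.97 TPM), as for Lin28a and Hmga2. In trex they were 9.44, 30.5, 251 and 491 TPM in replicates 1 to 4, lowest where Lin28a was highest. Primitive erythroid markers summed to 3028 to 15565 TPM in trex and 7065 to 15766 TPM in wt, and none of 7 was called or had an unadjusted p below 0.05. Tail bud markers summed to 14.4 to 24.3 and 7.73 to 16.5 TPM, with none of 4 called and 2 at an unadjusted p below 0.05. Primordial germ cells strongly express Lin28a. Of their markers, Dppa3 reached at most 0.423 TPM, Dazl 0.312 TPM and Ddx4 0.438 TPM in any library, while Nanos3 lay between 1.13 and 2.95 TPM and Dnd1 between 1.78 and 2.81 TPM. The 7 germ cell genes together summed to 41.4 TPM in trex replicate 1, where Lin28a was highest. The sums were 25.5 to 26.8 TPM in the other mutants and 19.4 to 24.5 TPM in wt, so the groups did not overlap. Most of each sum came from Prdm1 and Tfap2c, which are not particular to germ cells. Of 4 tested, none was called by limma and 1 had an unadjusted p below 0.05. The part of these tissues in the differences of the set was not tested.

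Gene length also went with the calls. When the tested genes were split by exonic length into 5 classes of like size, 7.48% of the longest class (from 7061 bases) were called higher in trex and 2.90% lower. In the shortest class these shares were 2.26% and 2.74%. Of the 8 genes, 5 belong to the longest class: Lin28b, Igf2bp1, Igf2bp2, Igf2bp3 and Trim71. The median log2 difference of that class was 0.07. The part of length in the differences of these genes was not tested.

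Most enzymes and cofactors that process and use let-7 were not called. Of 18 such genes 1 fell, none rose, and the median log2 difference was 0.07. The gene that fell was Ago1, which encodes an Argonaute protein that carries mature microRNAs, from 140.3 ± 10.3 to 107 ± 11.6 TPM (log2 difference -0.39 ± 0.08, adjusted p = 0.0282 in limma). Its call was lost without trex replicate 3 or 4 or wt replicate 1, 2 or 3 (adjusted p between 0.0543 and 0.0995). Prkra, a Dicer partner and the most abundant gene of the list that was not called, averaged 193 ± 17.3 TPM in mutants against 183 ± 6.40 TPM in controls. Tut4, the uridylyl transferase that Lin28a recruits to let-7 precursors, had a log2 difference of 0.19 (adjusted p = 0.159), and Dicer1 an adjusted p of 0.970.

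Let-7 target genes outside the set split. Of 31 listed targets 4 rose and none fell, and the median log2 difference was -0.01. Arid3a and Arid3b, which encode DNA-binding proteins with an ARID domain, rose from 86.8 ± 7.52 to 115 ± 8.79 TPM (adjusted p = 0.0201 in limma) and from 48.7 ± 1.97 to 72.4 ± 11.6 TPM (adjusted p = 0.0180). Nr6a1, an orphan nuclear receptor that controls trunk Hox genes, rose from 55.9 ± 5.97 to 81.9 ± 16.2 TPM (adjusted p = 0.0424). It held 106 TPM in trex replicate 1 and 71.5 to 77.9 TPM in the other mutants. Thbs1, a matrix glycoprotein gene, rose from 24.1 ± 3.04 to 32.5 ± 3.66 TPM, with an adjusted p just under the threshold (0.04997). The cell cycle and growth targets Mycn, Ccnd1, Ccnd2 and Nras were not called, nor was Cbx5, the most abundant of the list, at 504 ± 18.1 TPM in mutants against 471 ± 10.5 TPM in controls. Without single libraries the call was lost for Arid3a (trex replicate 4, wt replicates 1 and 2, adjusted p up to 0.0773) and for Arid3b (trex replicate 4, wt replicates 2 and 3, up to 0.0710). The same was so for Nr6a1 (all but trex replicates 1 and 2, up to 0.127) and Thbs1 (all but trex replicate 2, up to 0.115).

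When all tested genes were ordered by let-7 seed matches rather than by a list, few genes had many. Of the 11719 genes with no match 5.23% were called higher and 4.27% lower, and of the 1232 with 1 match 6.90% and 4.46%. Of the 150 genes with 2 matches 8 were higher and 5 lower, with a median log2 difference of 0.05. The 26 genes with 3 or more matches had a median of 0.18, with 7 called higher and none lower, and 3 of those 7 are Hmga2, Lin28b and Igf2bp1. Leaving out the 4 genes of the set that belong to this class, 22 genes remained, with a median of 0.12 and 4 called higher. These were Nr6a1, which with 8 matches had the most of any gene, Trim6 with 6 matches, and Fign and Zc3hav1l with 3 each; the last 3 are named after their values were seen. The genes with the next most matches after Nr6a1, Mcf2l and Nudt12 with 7 each, were not called and had log2 differences of -0.21 and 0.10. Trim6 rose from 8.99 ± 1.53 to 15.2 ± 3.53 TPM, Fign from 18.9 ± 0.59 to 25.0 ± 3.33 TPM and Zc3hav1l from 116 ± 1.64 to 131 ± 3.06 TPM (adjusted p = 0.0407, 0.0414 and 0.0305 in limma). The call was lost when 1 library was left out for Trim6 and Zc3hav1l (trex replicates 3 and 4 and each wt library, adjusted p up to 0.118) and for Fign (trex replicate 3 and each wt library, up to 0.127). Hic2 and Fignl2, with 4 and 3 matches, had log2 differences of -0.01 and -0.03. Genes with more matches also had longer UTRs, a median of 4462 bases for 3 or more and 1087 for none. Among genes with a 3′ UTR of at least 2000 bases, the median log2 difference was 0.04 with a match and 0.03 without. Classes are described without a test, and mature let-7 was not measured.

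**Figure D4:**
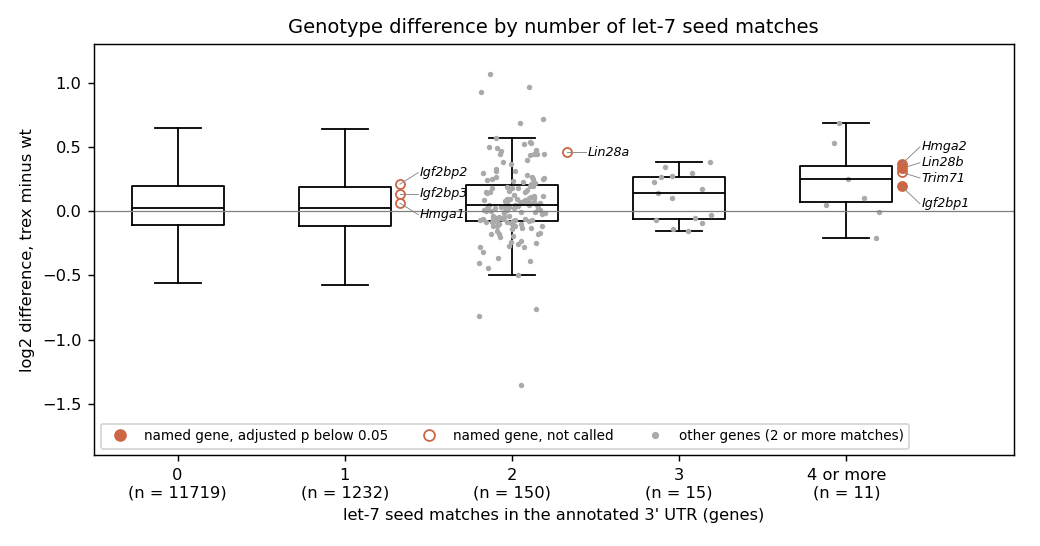
Log2 difference (trex minus wt) of tested protein-coding genes by the number of let-7 seed matches in the annotated 3′ UTR. Boxes give the median and quartiles and whiskers reach 1.5 times the box; grey points are single genes where there are 2 or more matches, and labelled points are the 8 genes. The 4 labelled genes with 4 matches lie between 0.19 and 0.36.

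Messengers that Trim71 is known to repress were not called. Of 7 tested, none passed the test in limma, and the median log2 difference was -0.05. An unadjusted p below 0.05 was found for 3 of them and for 29% of all tested genes. Plxnb2, a plexin receptor gene and the most abundant, averaged 124 ± 7.14 TPM in mutants against 114 ± 0.96 TPM in controls (adjusted p = 0.145, and 0.0279 without trex replicate 1). Cdkn1a, the cell cycle inhibitor, had a log2 difference of -0.44 (adjusted p = 0.101). Rbl1, a relative of the retinoblastoma gene, lay at 37.8 to 43.5 TPM in trex and 46.5 to 49.0 TPM in wt, a log2 difference of -0.21 (adjusted p = 0.0558).

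Genes of the pluripotent and early embryo were mostly low. Of 17 only 7 reached the level for testing, 1 rose and none fell, and the median log2 difference was -0.04. Sall4, 1 of the 7 and not called, also belongs to the list of let-7 targets. Tet1, which oxidises methylated DNA, rose from 16.3 ± 0.42 to 28.2 ± 7.46 TPM (log2 difference 0.72 ± 0.17, adjusted p = 0.0389 in limma). It held 35.9, 18.9, 26.0 and 32.1 TPM in trex replicates 1 to 4, all above the wt maximum of 16.7 TPM. Its call was lost without trex replicate 3 or 4 or any single wt library (adjusted p up to 0.111). Dnmt3b, a DNA methyltransferase gene, stood at 58.5 ± 6.12 and 52.4 ± 1.59 TPM (adjusted p = 0.208), and Pou5f1 was at most 0.530 TPM in any library.

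The insulin-like growth factor genes, whose messengers include the classic Igf2bp ligands, held a higher median log2 difference, 0.39 over 14 tested genes, with 3 called higher and none lower. Igf1r, Insr and Irs2 also belong to the list of let-7 targets. Igf2r, the receptor that clears Igf2, rose from 100.2 ± 13.4 to 175 ± 38.2 TPM (adjusted p = 0.0289 in limma). The binding protein genes Igfbp5 and Igfbp4 rose from 474 ± 67.5 to 735 ± 122 TPM (0.0277) and from 365 ± 6.82 to 416 ± 10.4 TPM (0.0265). H19, the imprinted RNA beside Igf2 and a known Igf2bp1 ligand, held 6080, 6425, 7400.2 and 8540.5 TPM in trex replicates 1 to 4. In wt it held 4675, 5126, 5483 and 5881 TPM, so the groups did not overlap, but it was not called (adjusted p = 0.0773, and 0.0351 without trex replicate 1). Igf2 had a log2 difference of 0.46 (adjusted p = 0.114). Igf1 lay the other way, at 10.1 to 13.7 TPM in trex and 14.2 to 17.5 TPM in wt, with a log2 difference of -0.42 (adjusted p = 0.0513), and was not called. Calls were lost without single libraries for Igf2r and Igfbp5 (trex replicates 3 and 4 and wt replicates 1, 2 and 3, adjusted p up to 0.0848) and for Igfbp4 (trex replicates 3 and 4 and each wt library, up to 0.0995).

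No other high mobility group gene tested was called higher. Of 11 tested 2 fell and none rose, and the median log2 difference was -0.12. Tox3 fell from 66.6 ± 2.90 to 45.5 ± 4.64 TPM (adjusted p = 0.00795 in limma) in all 8 fits that leave out 1 library, and Tox from 11.4 ± 2.20 to 5.41 ± 0.82 TPM (adjusted p = 0.0122, and 0.0538 without wt replicate 2). Ssrp1, a subunit of the histone chaperone FACT and the most abundant of those not called, stood at 721 ± 35.5 and 696 ± 32.0 TPM.

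**Figure D5:**
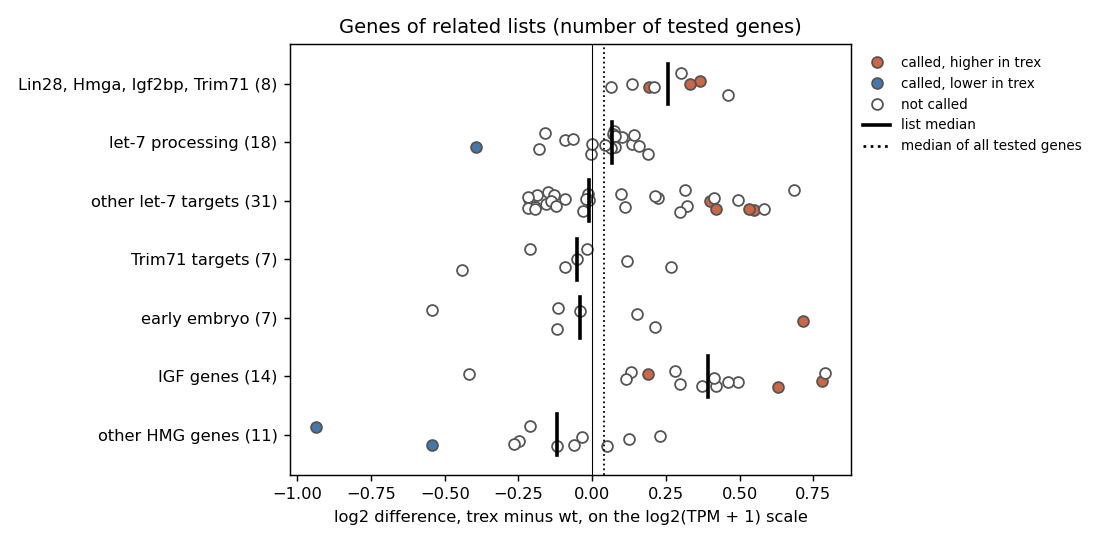
Log2 difference (trex minus wt) of each tested gene in the set and in 6 related lists, filled where called; the black tick is the list median and the dotted line the median of all tested genes. The set and the insulin-like growth factor genes have the highest medians, 0.26 and 0.39.

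The genes whose profiles over the 8 libraries lay closest to the called members were found by the root mean square difference of log2(TPM + 1), each centred on its own mean. Closest to Lin28b was Trim71 (0.041), followed by Tiam1 (0.047) and Larp1 (0.051). Closest to Hmga2 were Pdgfra, a receptor of embryonic mesenchyme (0.044), Arhgap10 (0.053) and Npr1 (0.065). Closest to Igf2bp1 were Pcdh18 (0.032), Irak1 (0.040) and Atp8b2 (0.041). Since likeness is taken over both genotypes, these genes carry the same genotype difference by construction: Pdgfra, for example, averaged 103 ± 4.02 TPM in mutants against 79.8 ± 5.65 TPM in controls.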

How the data were processed

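Poly-A selected, strand-specific libraries of 4 trex and 4 wt samples were sequenced, per the labels' protocols. The deposited values are TPM, 1 column per sample, each summing to 1000000. CASAVA 1.8.2, STAR and mm10 are named in the submitters' processing notes. How reads were counted, whether by strand, what was done with reads that map to several places, and which annotation was used is not given in the sources used here. GENCODE M21, whose assembly GRCm38 is that of mm10, supplied symbols, positions and exonic lengths for 55240 of 55421 identifiers. Multiplied by exonic length, at least 98.7% of low values (up to 200 reads) came out whole, within 0.001 read, which gave the recovered depth; the 8 genes held between 578 and 17377 reads in a library; where libraries of a group lie close together, as for Igf2bp2 and Igf2bp3 in wt, counting error can be a large part of their spread.

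Genes with a mean TPM of at least 1 were tested with limma 3.58.1 in R 4.3.3 (two-sided moderated test, trended eBayes, genotype as the single term). The scale was log2(TPM + 1), a pseudocount of 1, and p-values were adjusted by Benjamini-Hochberg over all 15717. A fold is 1 group mean over the other; log2 differences understate changes of weakly expressed genes. The step was tested on simulated data for this comparison (15717 genes, independent noise) and found 22% of simulated log2 differences of 0.3, 62% of 0.5 and 90% of 1.

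The 8 genes and all lists were chosen with earlier results of these data known. The naming rule took the 8 genes, Rdh10, up to 4 called genes by p and the most abundant gene not called of each related list, and the 3 nearest profiles of each called member. Other genes named were chosen after their values were seen. Alternatives were other pseudocounts, filters, scalings, variance models and weights, the replicate block, leaving out each library, voom, and covariates; the liver covariate and the sum of Hmga1 and Hmga1b were added after seeing the data.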

Additional observations from a re-analysis of the deposited data

Results flagged for a closer look

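Dixon's gap test at the 95% level was applied to 76 gene and group combinations, 4 libraries in each, and 2 had an extreme library; chance alone gives about 1 in 20. Igf2bp1 stood at 189.8 TPM in wt replicate 1, where the other wt libraries held 179.6 to 181 TPM. Rdh10 stood at 106 TPM in trex replicate 1, where the other mutants held 62.7 to 69.0 TPM.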

How the results depend on the processing

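All 177 values of the 8 genes under the alternatives kept their direction, as did all 637 of the other named genes. The calls moved more. Of the 8 genes, 1 was called without a filter on low values, after median-of-ratios rescaling, with TPM rescaled after dropping genes of globin, mitochondria and sex chromosomes, without a variance trend, with voom on the recovered reads and with the replicate block, and it was Hmga2 each time. Array weights called 7, and the Y-linked covariate called 0. Over all genes, 694 (2.27%) were called without a filter, 8.81% after median-of-ratios rescaling and 8.56% with the rescaled TPM. Without a variance trend 6.62% were called, with voom 9.17% and with the replicate block 687 (4.37%). Array weights called 5524 (35.1%) of all genes and the Y-linked covariate 39 (0.248%). Leaving out single libraries gave 0 to 3 of the 8 genes and 199 (1.26%) to 2926 (18.6%) of all genes. The replicate block joined trex libraries 1 to 4 with wt libraries 5 to 8 in order, a pairing that the labels do not give. Libraries so joined deviated together in only 2 of 4 pairs (r of 0.16, -0.02, -0.00 and 0.25 over 15717 genes). They were not taken as pairs. The cause of these shifts was not tested. No scaling moved the median of all genes by more than 0.1 on the log2 scale. With 4 libraries a group, differences near 0.3 on the log2 scale were recovered in 22% of simulated cases. The simulation changed 50 genes of each size, far fewer than the 1369 called here, which makes its adjusted threshold stricter. It also drew them over a wide range of levels. The 22% is therefore not the recovery for these 8 genes, and a missed call does not show that a gene is unchanged.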

Other observations

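The table holds 11 rows for let-7 precursor genes. Only 2 of them had any read, at most 4 over the 8 libraries in 1 row. Mature let-7 was not measured in these libraries.

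Promoter windows (250 bases before to 50 after the start, RefSeq, GRCm38.p6) were found for 7 of the 8 genes, and not for Igf2bp1. None of the windows found held the hexamers AGGTCA or AGTTCA, the core letters of retinoic acid receptor elements, on either strand. Of 32851 windows of this length 27.7% did, and 7 genes are too few to set against that share. The Lin28b window (chr10:45470152-45470451) lies inside the gene span given above and not at its outer end. Other forms of the hexamer were not counted singly. The count says only that these letters are not in these windows.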
